A study of Rattus norvegicus with 27 samples.

Results

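The regions described here are the shores of unmethylated CpG-rich stretches in the genome of the rat kidney, measured by reduced representation bisulfite sequencing (RRBS). The genome was divided into bins of 500 bp, and a CpG position with 10 or more reads in all 12 libraries of the second of 2 count tables is called a site. A bin with 10 or more sites and a methylation level under 10% is called an unmethylated CpG-rich bin. A shore bin is an autosomal bin with 3 to 9 sites, of any methylation level, that lies within 4 bins (2 kb) of such a bin. This gave 10015 shore bins with 54329 sites, of 189815 autosomal bins with a site and of 95043 with 3 to 9 sites. These bins were chosen by their number of sites and by the mean level of the CpG-rich neighbour over the 12 libraries, not by their own level. Distance is counted in bins to the nearest unmethylated CpG-rich bin, so that distance 1 is the adjacent bin. There were 6582 shore bins at distance 1 (65.7%), 1580 at distance 2, 984 at distance 3 and 869 at distance 4. The deposited positions are on the rn5 build, per the submitters' processing notes.

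The study asked whether DNA methylation in the kidney takes part in salt-induced hypertension, as its title says. DNA of the renal outer medulla was measured in 27 individual salt-sensitive rats of 7 groups, each with 4 rats except MCW_LS with 3. HS_DT rats were MCW SS rats that received GapmeRs into the kidney, against Dnmt3a and Tet3 at 2 mg/kg each, and were fed 4% NaCl. The labels give their time on that diet as 7 without a unit, and the sample characteristics name the target Dnmt3 where the protocol names Dnmt3a. HS_SCR rats were MCW SS rats given 4 mg/kg of a scrambled GapmeR into the kidney and 4% NaCl for 7 days. PRE_LS rats were MCW SS rats with the same surgical preparation on 0.4% NaCl, sampled shortly ahead of the time at which GapmeR and high salt would have started. These 12 libraries form the second table. In the first table, MCW_HS rats (MCW SS) and CRL_HS rats (CRL SS) were fed the purified diet AIN-76A with 4% NaCl for 14 days from an age of 6 weeks. MCW_LS rats (MCW SS) were kept on AIN-76A with 0.4% NaCl until the age of 8 weeks. CRL_LS rats (CRL SS) were kept until the same age on 5L2F, a non-purified diet with 0.75% NaCl, so CRL_HS and CRL_LS differ in the kind of diet as well as in salt. A GapmeR is an antisense oligonucleotide that directs cleavage of its target RNA. RNA levels of Dnmt3a and Tet3 were not analysed here.

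In mammalian genomes most CpGs are methylated, while CpG islands, which hold many gene starts, are kept free of methylation. The shores beside islands are where the unmethylated state gives way to the methylated one, and they are known as places where methylation often differs between tissues. Dnmt3a adds methyl groups to unmethylated CpGs, and the Tet enzymes oxidise methylcytosine as a step towards its removal. A methylation level is the share of reads at a CpG that kept a C after bisulfite conversion. The tissue was bulk outer medulla, so that a different make-up of cell types and a different level within a cell type cannot be told apart.

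To show where shores lie against gene starts, 5 promoters are printed with their measured CpGs. They were taken from RefSeq (GRCr8 build, 250 bases before and 50 bases from the start) and were chosen after their values were seen. Their measured CpGs were found by matching the spacing of the CpGs along each promoter to the spacing of the deposited positions, because no genome of the rn5 build was used here. Each sequence runs 5′ to 3′ along the gene, and capitals mark the CpGs that were sites in all 12 libraries. They stand for a start where the level steps within 300 bases (Htatip2), a start where rats differ (Twf1), a start inside a partly methylated shore (Hes7), and a pair of shores with little methylation (Lhx1, a transcription factor of early kidney development, and Tet2, a methylcytosine dioxygenase).
Htatip2: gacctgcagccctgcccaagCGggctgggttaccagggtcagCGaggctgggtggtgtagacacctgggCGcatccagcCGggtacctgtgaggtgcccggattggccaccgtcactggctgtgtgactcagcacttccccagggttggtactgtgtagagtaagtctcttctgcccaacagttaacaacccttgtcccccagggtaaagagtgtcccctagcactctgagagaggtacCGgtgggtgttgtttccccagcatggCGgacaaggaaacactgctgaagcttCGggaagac
Twf1: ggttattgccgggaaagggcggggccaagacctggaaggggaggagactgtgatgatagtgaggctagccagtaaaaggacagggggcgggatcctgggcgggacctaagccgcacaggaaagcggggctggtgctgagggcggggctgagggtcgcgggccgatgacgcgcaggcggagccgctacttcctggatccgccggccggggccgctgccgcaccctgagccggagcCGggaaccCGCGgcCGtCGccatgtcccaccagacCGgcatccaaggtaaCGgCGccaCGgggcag
Hes7: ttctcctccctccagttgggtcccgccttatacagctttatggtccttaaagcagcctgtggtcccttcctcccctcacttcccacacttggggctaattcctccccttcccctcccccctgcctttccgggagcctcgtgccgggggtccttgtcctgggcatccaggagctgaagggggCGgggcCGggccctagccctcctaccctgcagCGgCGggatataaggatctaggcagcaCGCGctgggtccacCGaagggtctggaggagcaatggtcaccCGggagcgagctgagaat
Lhx1: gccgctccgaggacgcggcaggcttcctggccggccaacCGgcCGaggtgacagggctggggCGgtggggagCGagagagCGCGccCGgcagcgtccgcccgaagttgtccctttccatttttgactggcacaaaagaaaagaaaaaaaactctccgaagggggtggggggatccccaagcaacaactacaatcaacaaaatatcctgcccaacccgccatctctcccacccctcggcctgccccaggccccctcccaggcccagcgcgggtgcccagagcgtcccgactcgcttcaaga
Tet2: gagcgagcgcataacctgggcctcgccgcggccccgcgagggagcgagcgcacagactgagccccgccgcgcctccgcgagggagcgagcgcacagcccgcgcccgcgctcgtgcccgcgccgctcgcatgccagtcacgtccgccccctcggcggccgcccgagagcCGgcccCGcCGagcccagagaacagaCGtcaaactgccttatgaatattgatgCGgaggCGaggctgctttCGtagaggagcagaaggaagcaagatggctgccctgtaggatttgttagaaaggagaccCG

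The Htatip2 promoter held the edge of an unmethylated stretch within its 300 bases. Its 4 measured CpGs 230, 208, 181 and 171 bases before the start had mean levels over the 12 libraries of 1.06%, 1.32%, 9.72% and 2.60%, and these lay in the unmethylated CpG-rich bin. The CpG 11 bases before the start stood at 35.4%, and the CpGs at bases 15 and 41 from the start stood at 90.5% and 78.6%. These 3 lay in the adjacent shore bin, chr1:106145001-106145500, whose level was 80.1% ± 5.28 in HS_DT, 77.8% ± 1.29 in HS_SCR and 79.0% ± 4.10 in PRE_LS (SD over 4 rats), so that the groups overlapped. Htatip2 had the highest level among the shore bins with a placed start of their own. Its CpGs 171 and 11 bases before the start lie in the sequence CCGG, and a part of the library preparation in their levels was not tested.

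In the Twf1 promoter the order was turned round. Twf1 encodes twinfilin, an actin-binding protein. The shore bin, chr7:135507001-135507500, held the 5 CpGs up to and just after the start, at 14.9% for the one 16 bases before it and 30.0 to 31.0% for the other 4. The CpGs farther after the start lay in the CpG-rich bin, at 6.68% for base 19 and 0% for bases 34, 37 and 42. Hes7 encodes a repressor of the segmentation clock, and its printed start lay in a shore bin at distance 3, chr10:55450001-55450500. This bin lay downstream of another start, placed in the neighbouring unmethylated CpG-rich run. The 8 measured CpGs of the shore bin ranged from 5.70% at 63 bases before the printed start to 72.4% at 69 bases before it, only 6 bases away. The CpG at 63 bases before the start lies in the sequence CCGG, and the one at 69 bases does not. In Twf1 the CpG 16 bases before the start and the one at base 19 also lie in CCGG. CpGs in CCGG were not examined apart from others, and a part of the library preparation in these steps was not tested. The Lhx1 shore bin, chr10:71758001-71758500 at distance 2, had levels from 1.11% to 6.46% at its 7 measured CpGs. The Tet2 shore bin, chr2:257335501-257336000 at distance 1, had 0% at 7 of its 8 CpGs and 0.144% at the other.

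**Figure D1:**
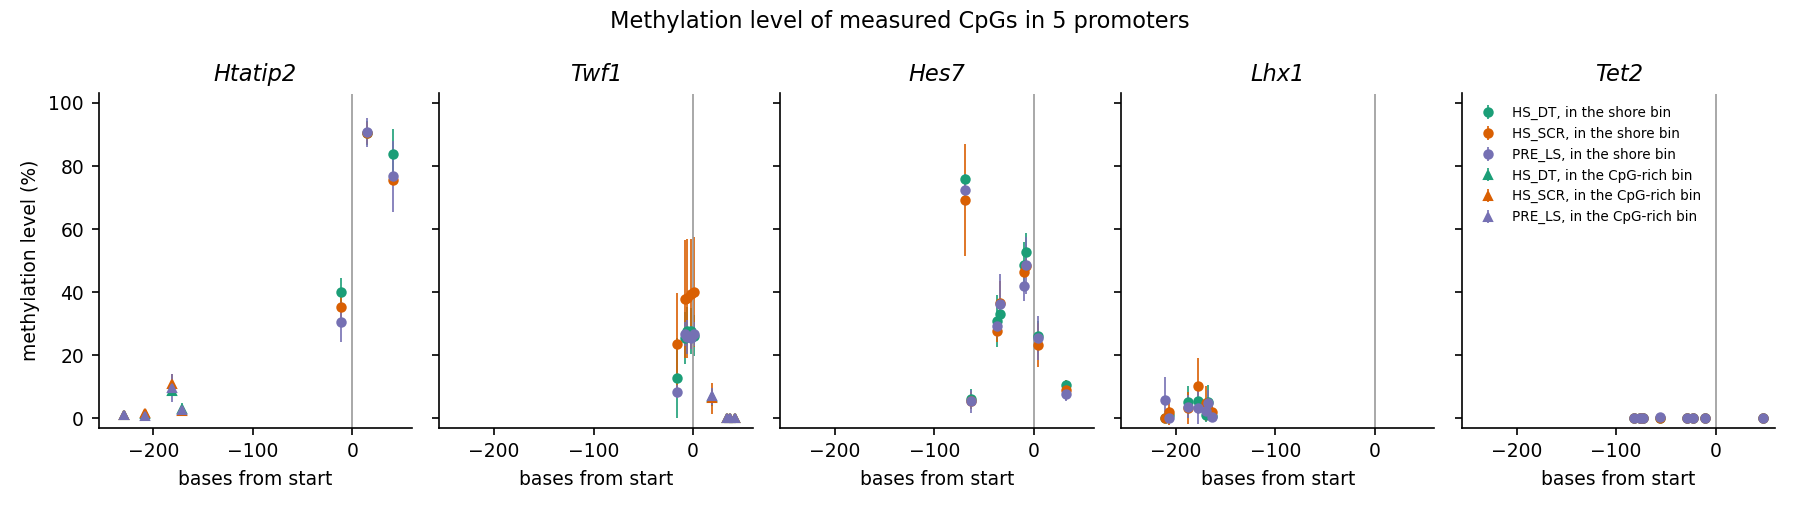
Methylation level (%) of each measured CpG in the 5 printed promoters against bases from the gene start (grey line), as group mean ± SD over 4 rats of HS_DT, HS_SCR and PRE_LS. Circles lie in the shore bin and triangles in the CpG-rich bin. Levels in Htatip2 step from under 10% to over 70% across the start, and the HS_SCR bars in Twf1 are the widest.

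The methylation level of shore bins increased with distance and spread over the whole range. At distance 1 the mean level was 4.97% ± 0.0754 (SD over 12 libraries), against 0.789% in the unmethylated CpG-rich bins themselves, whose level was set by the rule. At distances 2, 3 and 4 it was 26.7% ± 0.319, 41.9% ± 0.365 and 49.99% ± 0.384. Bins with 3 to 9 sites farther than 4 bins away averaged 61.2% ± 0.392. The gaps between neighbouring distances were many times the spread between libraries. Each library gave the same order of distances, since the SDs were below 0.4 points.

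The mean hid a mixture of bins. At distance 1 the median bin stood at 0.393%, 87.3% of bins were under 10% and 0.334% were over 80%. At distance 2 the median was 16.02%, with 44.2% of bins under 10% and 4.30% over 80%. At distance 3 the median was 46.0%, with 25.7% under 10% and 8.94% over 80%. At distance 4 the median was 58.6%, with 15.3% under 10% and 13.5% over 80%. The quartiles of bins at distance 2 were 1.71% and 48.97%, and the SD between bins was 27.9 points there and 12.4 points at distance 1. In all, 6831 shore bins (68.2%) were under 10%, 295 (2.95%) were over 80% and 2889 lay between. Most shore bins were thus themselves unmethylated, and the name shore describes their position.

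**Figure D2:**
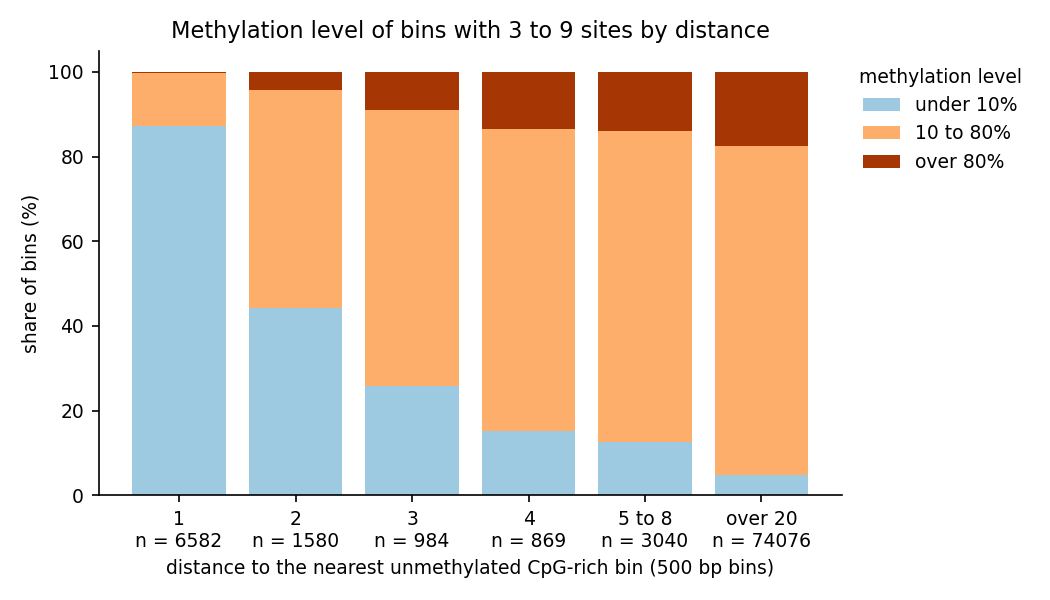
Share of bins with 3 to 9 sites (%, mean level over the 12 libraries of the second table) that were under 10%, from 10 to 80% or over 80% methylated, by distance to the nearest unmethylated CpG-rich bin in 500 bp bins. The unmethylated share was 87.3% at distance 1 and 15.3% at distance 4, against 4.87% of the 74076 bins over 20 bins away.

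Beyond the outer limit the levels went on smoothly. Bins at distance 4 averaged 49.99% and those at distance 5, just outside, 51.2%, and bins 5 to 8 away averaged 53.5%. Bins with 3 sites averaged 23.6%, and those with 2 sites, just outside, 20.3%. Bins with 9 sites averaged 6.03%, and those with 10 sites within the same distance 5.64%. Bins adjacent to a CpG-rich bin of 8 to 10% averaged 14.0% (80 bins), and those adjacent to one of 10 to 12% averaged 17.9% (53 bins). Beside CpG-rich bins of 10% or more with no unmethylated one near, bins with 3 to 9 sites averaged 65.1%, 64.3%, 63.0% and 62.9% at distances 1 to 4. These means were slightly lower farther out, where those of the shores were higher. Library SDs there were 0.294 to 0.413 points, and the SD between bins was 21.3 to 22.3 points. The distances hold different bins, and the trend was not tested.

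Single sites gave the shape of the gradient in finer steps. Distance was taken here from the outermost site of the CpG-rich bin. The 17448 sites within 1 to 100 bp averaged 1.505%. Sites 401 to 500 bp away averaged 8.51%, those 901 to 1000 bp away 27.9%, those 1401 to 1500 bp away 41.0% and those 1901 to 2000 bp away 49.8%. The median site was still at 10.9% between 901 and 1000 bp. Between 1901 and 2000 bp it was at 48.9%, where 22.1% of sites were under 10% and 31.9% over 80%. Neighbouring CpGs share reads, and all 12 libraries measure the same sites, so these values are a description of positions.

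**Figure D3:**
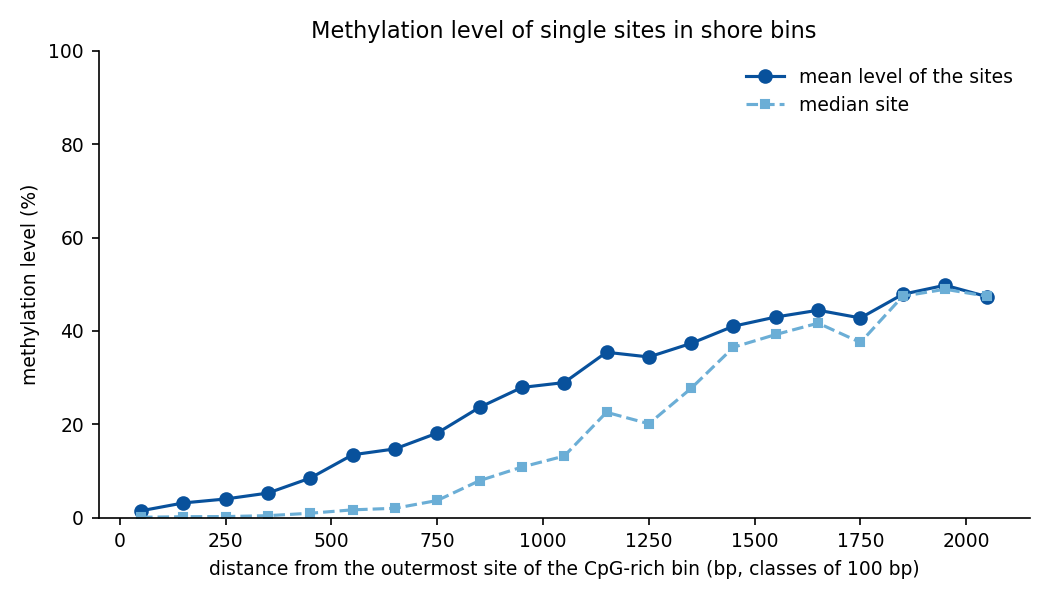
Methylation level (%) of single sites in shore bins against their distance in bp from the outermost site of the nearest unmethylated CpG-rich bin, in classes of 100 bp. Circles show the mean and squares the median over sites of their mean level in 12 libraries. The median is 20.1% where the mean is 34.4% between 1201 and 1300 bp, and 48.9% where the mean is 49.8% between 1901 and 2000 bp.

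The 15 libraries of the first table, which the rule did not use, measured 3953 of the shore bins with 3 or more sites. They gave 3.29% ± 0.138 at distance 1 (2905 bins), 19.5% ± 0.455 at distance 2 (515 bins), 35.6% ± 0.576 at distance 3 (289 bins) and 47.8% ± 0.448 at distance 4 (244 bins; SD over 15 libraries). The same bins had 3.03%, 19.0%, 34.4% and 46.4% in the second table. Bin by bin, the median absolute difference between the tables was 0.347 points and 97.2% of bins lay within 10 points. Pearson's r over the 3953 bins was 0.990, as a description, since the tables share the genome positions and the tissue. The bins of the first table are the more deeply covered ones of a shallower set of libraries, and their levels were not compared across tables by a test.

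Adjacent shore bins on the same flank were compared within the flank. Of 625 flanks with shore bins at distances 1 and 2, the bin at distance 2 was higher in 77.8%, with means of 18.7% at distance 2 and 6.29% at distance 1. Of 219 flanks with bins at distances 1 and 4, the far bin was higher in 93.2%, at 44.9% against 4.73%. Of 133 flanks with bins at distances 3 and 4, the far bin was higher in 54.1%. Single flanks went stepwise more than evenly. On the 10 flanks where all 4 bins were shore bins, distance 4 was above distance 1 in all 10, but the level climbed at every step in 1, and 4 flanks stayed under 10% throughout.

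Some flanks reached a high level within 1 bin. Next to the CpG-rich bin chr7:126625001-126625500, towards lower coordinates, the levels at distances 1 to 4 were 0.423%, 79.4%, 88.9% and 86.9%. Next to chr5:168619501-168620000 they were 0.0483%, 82.4%, 71.2% and 85.5%. The flank downstream of the start of Tssc4, from chr1:223116501-223117000, had 0.726%, 75.5%, 68.8% and 62.6%. The flank upstream of Ptpn3, a protein tyrosine phosphatase, held low levels longer. From chr5:78516501-78517000 it had 1.10%, 1.05%, 5.81% and then 81.6%.

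Other flanks stayed low or went up and down. The shore upstream of Thrb, the thyroid hormone receptor beta, from chr15:13295501-13296000, had 0.119%, 0.0580%, 0.155% and 0.213% at distances 1 to 4. Upstream of Bcl3, an I-kappa-B family protein, the levels were 0.197%, 31.6%, 0.194% and 21.7% from chr1:82010001-82010500. Each of these 4 bins held 4 to 8 sites, so the alternation was not between empty and measured bins.

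Gene starts could be placed on the deposited positions for 9472 promoters of 8610 genes. A placement needed 8 or more CpGs of the promoter at the same spacing, so CpG-poor promoters are missing from it. There were 13001 runs of adjacent unmethylated CpG-rich bins, 7131 of them of 1 bin, and 5239 held a placed start. Next to a run with a start lay 3667 shore bins (36.6%), and 572 shore bins held a start of their own. Together they belong to 3610 genes.

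Shores of runs with a placed start were more methylated at distances 2 to 4 than shores of runs without a placed one. A run without a placed start may still hold a start that could not be placed. Bins with a start of their own were left out of this comparison. At distances 1 to 4, bins beside a run with a placed start averaged 4.67%, 30.8%, 51.5% and 57.3%. Those beside a run with no placed start averaged 5.70%, 25.6%, 38.1% and 45.8%. Downstream of the start, the levels were 4.27%, 28.1%, 52.7% and 58.9%. Upstream of it they were 5.32%, 33.2%, 47.5% and 53.8%. The downstream side was thus lower at distances 1 and 2 and higher at distances 3 and 4, by about 1 to 5 points. These gaps exceeded the SD between libraries, but the bins compared are different places in the genome and the gap was not tested.

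The shore level also differed with the length and the level of the CpG-rich run. Beside runs of 4 or more bins, the levels at distances 1 to 4 were 7.94%, 18.9%, 26.7% and 34.8% (171, 48, 31 and 31 bins). Beside runs of 3 bins they were 6.19%, 29.7%, 42.4% and 45.9%, beside runs of 2 bins 6.28%, 29.5%, 44.6% and 52.6%, and beside runs of 1 bin 4.17%, 25.2%, 41.2% and 49.9%. The level thus did not follow run length evenly, and the runs of 4 or more bins stood lowest at distances 2 to 4. Beside CpG-rich bins of 5 to 10%, the shore had 15.98% at distance 1 and 42.0% at distance 4. Beside those under 1% it had 3.48% at distance 1 and 53.7% at distance 4, a steeper gradient. The 689 shore bins with unmethylated CpG-rich bins on both sides averaged 3.26%, 13.7% and 22.2% at distances 1 to 3. Shore bins with more sites were lower. At distance 1, bins with 3 sites averaged 8.12% and those with 9 sites 2.24%. The side by genome coordinate mattered less, with 4.96%, 25.9%, 44.0% and 50.1% towards lower coordinates and 5.26%, 27.8%, 40.5% and 50.03% towards higher ones.

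**Figure D4:**
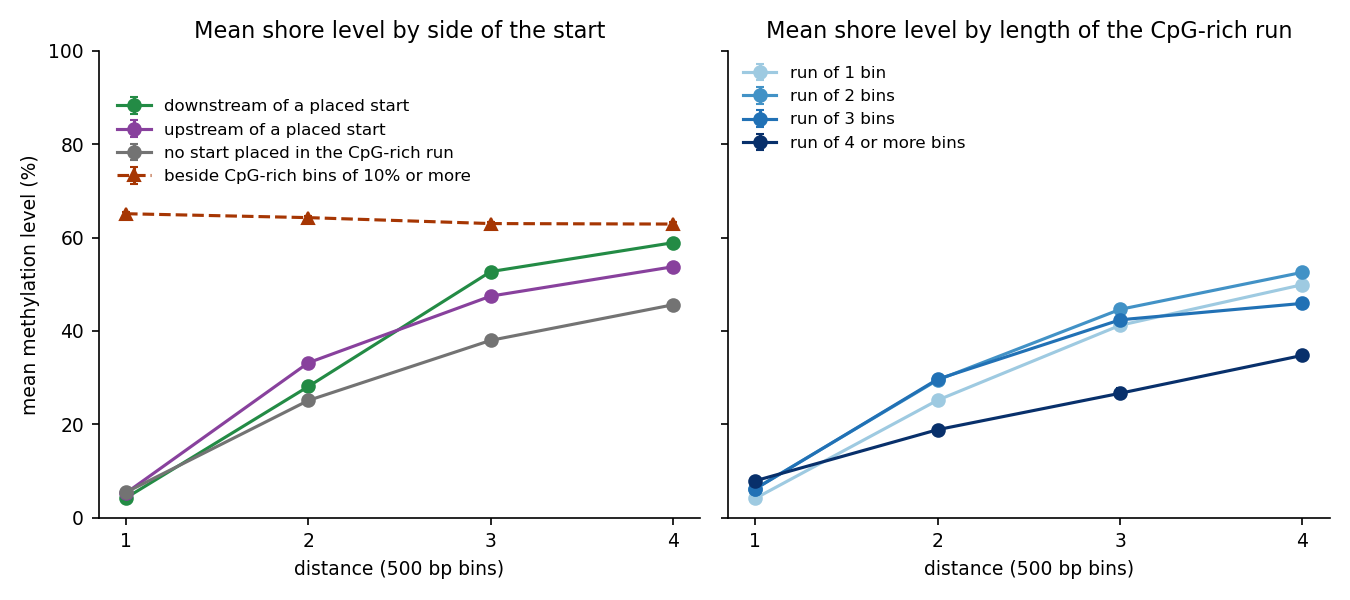
Mean methylation level (%) of shore bins against distance in 500 bp bins, with SD over 12 libraries (mostly within the symbols). Left, bins downstream and upstream of a placed gene start, bins beside runs without a placed start, and bins beside CpG-rich bins of 10% or more; right, by the number of adjacent unmethylated CpG-rich bins. Bins beside methylated CpG-rich bins stay near 63 to 65% at every distance.

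A gene start inside a shore bin went with low methylation at every distance. The 572 bins with their own placed start averaged 1.18%, 2.21%, 16.6% and 14.99% at distances 1 to 4 (511, 37, 16 and 8 bins). Of these, 549 (96.0%) were under 10%, 23 were 10% or more and 7 were over 50%. Promoters that start in a shore bin under 10% had a median of 22 CpGs in 300 bases and 62.3% G and C (622 promoters). Those that start in a shore bin of 10% or more had 14 CpGs and 60.5% (26 promoters). Promoters that start in an unmethylated CpG-rich bin had 26 CpGs and 65.7% (6333 promoters).

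The methylated exceptions were few, and the ones named here were chosen after their values were seen. Besides Htatip2, the bin with the start of Usp19, a deubiquitinase, had 78.1% ± 2.96 (SD over 12 libraries) at distance 3. The start of Nags, which makes the urea cycle activator N-acetylglutamate, lay in a bin of 60.03% at distance 1. The start of Spx, which encodes the peptide spexin, lay in a bin of 63.6% at distance 3. The bin with the start of Rmdn3, a tether between mitochondria and the endoplasmic reticulum, had 64.0%, 61.7%, 60.1% and 67.9% in HS_DT, 75.1%, 69.0%, 40.2% and 62.1% in HS_SCR and 69.5%, 70.9%, 62.6% and 66.6% in PRE_LS. A single HS_SCR rat was at 40.2% and the others of that group were above 60%.

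Among genes whose start lay in the neighbouring run, shores went to both extremes, and these too were chosen after their values were seen. The adjacent bin of Smdt1, a subunit of the mitochondrial calcium uniporter, was at 97.0% beside a CpG-rich bin of 0.0421%. The adjacent bins of Uri1, Ano8 and Aprt, which salvages adenine, stood at 89.3%, 88.5% and 86.0%. At distance 4, the shores of Il3ra, an interleukin-3 receptor chain, and Rasa2, a Ras GTPase activator, had 97.4% and 92.6%. At the same distance the shores of Sptbn4, Ube2v1 and Iqce had 0%, and that of the cell adhesion protein Alcam 0.0389%. Over all 1200 shore bins with a placed start at distances 2 to 4, 315 (26.3%) were under 10% and 129 (10.8%) over 80%, with a median of 47.9%.

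Genes of the kidney and of blood pressure control were looked up by lists. Of the 12 thick ascending limb genes, 1 start was placed and none had a shore bin, and of the 11 vessel, stroma and immune genes 3 starts were placed with no shore bin, so the tissue could not be checked against its markers here. The other lists had 22 shore bins of 19 genes. For comparison, 2944 of all 4123 shore bins near a placed start were under 10%, with a median of 0.577%.

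The listed kidney and developmental transcription factors had shore bins from 0.472% to 20.3%, and Pax2 alone had bins beyond distance 2. Pax2, needed for kidney formation, had 3.26% at distance 3 and 3.34% and 5.39% at distance 4 on either side. Lhx1 had 3.36% ± 1.91 at distance 2, and Gata3, a regulator of the collecting system, 0.472% at distance 2. The highest was Wt1, a regulator of podocytes and the developing kidney, with 20.3% at distance 1. Its group means were 21.02% ± 6.03 in HS_DT, 19.3% ± 4.08 in HS_SCR and 20.6% ± 4.15 in PRE_LS. Of regulators of other tissues, Sox2 had 4.95% and the heart factor Nkx2-5 7.70%, both at distance 2. In all, 4 of 5 bins of the kidney factors, 3 of them of Pax2, and both bins of the other regulators were under 10%. These low bins lay at distances 2 to 4, where 315 of 1200 shore bins with a placed start (26.3%) were under 10%. Over all distances it was 2944 of 4123, most of them at distance 1. The listed bins are few, and the gap was not tested.

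Shores of DNA methylation enzymes and housekeeping genes were close to 0 at distance 1, as most bins there were. The 2412 bins at distance 1 beside a run with a placed start had a median of 0.226%, and 88.3% were under 10%. The 511 with a placed start of their own had a median of 0.0752%. Dnmt1, the maintenance methyltransferase, had 0.0762%, Tet2 0.0215% and the DNA glycosylase Tdg 0%. The housekeeping genes Polr2a, Eef1a1 and Ppia had 0.0288%, 0.271% and 0%. Neither Dnmt3a nor Tet3 had a shore bin beside a placed start.

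Genes of blood pressure and salt handling had shores on both sides of the range, with 2 of 5 bins under 10% and a median of 48.8%. Ace, which makes angiotensin II, had 78.3% at distance 3 in chr10:93920001-93920500, with 79.2% ± 1.47 in HS_DT, 77.9% ± 2.55 in HS_SCR and 77.8% ± 2.04 in PRE_LS. Edn1, the precursor of endothelin 1, had 64.7% at distance 4, with 63.7% ± 2.31 in HS_DT, 66.4% ± 2.07 in HS_SCR and 64.0% ± 2.10 in PRE_LS. Sgk1, an aldosterone-induced kinase, had 48.8% at distance 4, with 48.9% ± 4.39 in HS_DT, 50.3% ± 7.20 in HS_SCR and 47.1% ± 8.73 in PRE_LS. The groups overlapped for all 3 genes. The adjacent bins of Wnk4, a kinase that regulates distal salt transport, and Add1, alpha-adducin, had 0.451% and 0.0414%. The 2 low bins lay at distance 1 and the 3 higher ones at distances 3 and 4, where Ace at distance 3 was above Edn1 and Sgk1.

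Proximal tubule genes gave the 1 listed bin with separate groups. Slc13a3, a sodium-dicarboxylate cotransporter, had 67.0% at distance 1, with 67.6% ± 3.71 in HS_DT, 65.7% ± 1.63 in HS_SCR and 67.6% ± 1.48 in PRE_LS. In the first table the same bin had 74.5%, 66.3%, 65.2% and 76.1% in MCW_HS, 67.1%, 59.5% and 57.1% in MCW_LS, 54.3%, 58.9%, 71.4% and 56.6% in CRL_HS and 59.6%, 62.4%, 53.8% and 64.7% in CRL_LS. MCW_HS was higher by 9.26 points than MCW_LS and by 10.2 points than CRL_HS, with overlapping groups and adjusted p of 0.799 and 0.844 in the quasi-binomial test. Lrp2, which encodes the endocytic receptor megalin, had 0.532% at distance 1 and 7.87% at distance 4. The bin at distance 4, chr3:62436501-62437000, had 8.33%, 6.91%, 8.70% and 4.78% in HS_DT, 7.14%, 11.6%, 10.6% and 14.4% in HS_SCR and 4.88%, 4.42%, 5.92% and 6.78% in PRE_LS. Every HS_SCR rat was above every PRE_LS rat, by 5.45 points on average, and HS_DT overlapped with both. The adjusted p of the quasi-binomial test was 1.0 for HS_SCR minus PRE_LS, where 3836 shore bins were tested. Over the listed bins, none of 9 tested bins in the second table and none of 6 in the first passed the test in any comparison, where the share called over all bins was 0.0%. At an unadjusted p under 0.05 the counts were 2 of 24 tests in the second table and 0 of 22 in the first, against 4.41 to 5.21% and 5.34 to 6.23% of all bins over the comparisons. Both of the 2 were of the Lrp2 bin at distance 4, and the limma alternative called none.

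The 7 groups had nearly the same shore methylation. Over all shore bins the mean was 15.9% ± 0.0788 in HS_DT, 15.99% ± 0.259 in HS_SCR and 15.9% ± 0.105 in PRE_LS (SD over 4 rats). Over the bins of the first table it was 10.7% ± 0.276 in MCW_HS (n = 4), 10.4% ± 0.0618 in MCW_LS (n = 3), 10.5% ± 0.0896 in CRL_HS and 10.4% ± 0.189 in CRL_LS (n = 4 each). The first table measured only a part of the shore bins, so these means do not compare across the tables.

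The partly methylated shores at distances 2 to 4 were looked at rat by rat. HS_DT rats had 37.0%, 36.9%, 37.0% and 36.7%, HS_SCR rats 37.4%, 37.0%, 37.4% and 36.2%, and PRE_LS rats 37.0%, 36.6%, 37.1% and 37.1%. HS_SCR replicate 4 was the lowest of the 12, and in the bins farther away an HS_SCR rat was lowest as well, at 60.1%. HS_DT minus HS_SCR was -0.123 points (SE 0.288), HS_SCR minus PRE_LS 0.0871 points (SE 0.303) and HS_DT minus PRE_LS -0.0362 points (SE 0.135). All 3 differences lay within their standard error and the groups overlapped.

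MCW_HS rats had 30.3%, 31.1%, 31.5% and 31.1% at distances 2 to 4, MCW_LS rats 30.2%, 30.2% and 30.5%, CRL_HS rats 30.4%, 30.4%, 30.9% and 30.5% and CRL_LS rats 30.2%, 29.9%, 30.0% and 30.7%. MCW_HS minus MCW_LS was 0.709 points with an SE of 0.255, and 11 of 12 pairs had the MCW_HS rat higher. CRL_HS minus CRL_LS was 0.385 points with an SE of 0.201, in the same direction in 13 of 16 pairs. Bins farther away differed alike, by 0.505 points in MCW rats (SE 0.185) and 0.464 points in CRL rats (SE 0.216). MCW_HS and CRL_HS rats, on the same diet, overlapped, with a difference of 0.454 points (SE 0.260). MCW_LS and CRL_LS rats also overlapped, with a difference of 0.130 points (SE 0.194), but here colony, salt content and kind of diet cannot be told apart. The difference between the salt effects of the colonies was 0.324 points (SE 0.324). Here and below a salt effect is HS minus LS, which in CRL rats starts from another salt content and also changes the kind of diet. No test was made on these means, because the bins were chosen with results of these data known.

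By distance, the groups kept the same gradient. Distance 1 averaged 4.94% ± 0.0501 in HS_DT, 5.02% ± 0.103 in HS_SCR and 4.95% ± 0.0553 in PRE_LS. It averaged 3.397% ± 0.207 in MCW_HS, 3.23% ± 0.0441 in MCW_LS, 3.29% ± 0.0582 in CRL_HS and 3.25% ± 0.141 in CRL_LS. At distance 4 the values were 49.99%, 50.02% and 49.9% in HS_DT, HS_SCR and PRE_LS, and 48.2%, 47.6%, 48.0% and 47.4% in MCW_HS, MCW_LS, CRL_HS and CRL_LS. There every MCW_HS rat was above every MCW_LS rat, by 0.676 points on average (SE 0.231). The count of shore bins under 10% was 6844 in HS_DT, 6831 in HS_SCR and 6823 in PRE_LS, so the extent of the unmethylated shores differed by under 0.5% of its size.

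**Figure D5:**
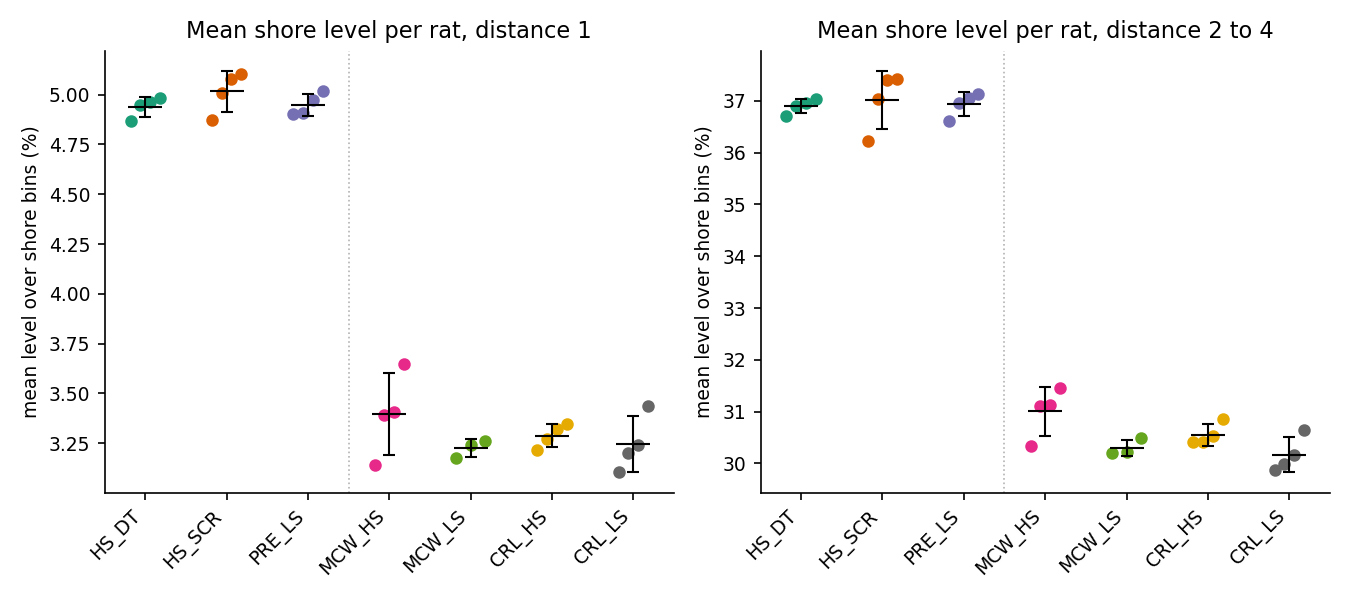
Mean methylation level (%) over shore bins at distance 1 (left) and at distances 2 to 4 (right), with 1 point per rat, bars for the group mean ± SD, and separate axes that do not start at 0. The dotted line parts the second table (HS_DT, HS_SCR, PRE_LS) from the first (MCW_HS, MCW_LS, CRL_HS, CRL_LS), which measured only a part of these bins. The groups overlap within each table.

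Bin by bin, no shore bin passed the test between any groups. The test was a quasi-binomial model on the read counts of each bin with 1 value per rat, over all bins of the table with 3 or more sites and a pooled level from 5 to 95%, with Benjamini-Hochberg adjustment. Only the partly methylated shores enter it. Between 3814 and 3836 of the 10015 shore bins were tested with the second table, and 953 to 987 of 3953 with the first. At an adjusted p under 0.05, 0 shore bins were called in all 8 comparisons, and the share called over all bins tested was 0.0% in each. The limma alternative also called 0.

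At an unadjusted p under 0.05 the quasi-binomial test gave 247 shore bins for HS_DT minus HS_SCR (6.46%, against 4.41% of all bins tested). It gave 258 for HS_SCR minus PRE_LS (6.73%, against 4.77%) and 270 for HS_DT minus PRE_LS (7.08%, against 5.21%). In the first table it gave 91 for MCW_HS minus MCW_LS (9.23%, against 6.23%), 70 for CRL_HS minus CRL_LS (7.28%, against 5.92%), 75 for MCW_HS minus CRL_HS (7.60%, against 5.95%) and 88 for MCW_LS minus CRL_LS (9.23%, against 5.62%). The difference of the salt effects gave 68 (7.00%, against 5.34%). By direction, 67 of the 91 were higher in MCW_HS and 24 lower (3.96% and 2.26% of all bins), and 50 of the 70 were higher in CRL_HS and 20 lower (4.14% and 1.78% of all bins). Of the 247, 111 were higher in HS_DT and 136 lower (2.34% and 2.07% of all bins). The median difference of the shore bins tested was 1.17 points for MCW_HS minus MCW_LS, against 0.342 points over all bins, and 0.492 points for CRL_HS minus CRL_LS, against 0.370 points.

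Groups that did not overlap were found in 117 shore bins for HS_DT minus HS_SCR (3.06%, against 2.56% of all bins), 117 for HS_SCR minus PRE_LS (3.05%, against 2.64%) and 115 for HS_DT minus PRE_LS (3.02%, against 3.03%). They were found in 76 for MCW_HS minus MCW_LS (7.71%, against 6.1%), 26 for CRL_HS minus CRL_LS (2.70%, against 3.07%), 30 for MCW_HS minus CRL_HS (3.04%, against 3.32%) and 68 for MCW_LS minus CRL_LS (7.14%, against 5.59%). These shares lay near those of all bins. In the second table the spread between rats of a group was larger in partly methylated shore bins than in such bins farther away. In shore bins of 10 to 80% the median dispersion was 2.65 times the binomial value and the median SD within groups 4.04 points, against 1.62 and 3.48 points in bins of the same levels farther away. Its part in the counts was not tested.

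For HS_DT minus HS_SCR, the shore bins with the smallest unadjusted p among those with separate groups are given as the strongest candidates, none of which passed the adjustment (adjusted p of 1.0 in the quasi-binomial test). The shore upstream of Slc37a1, a glucose-6-phosphate transporter, in chr20:12215001-12215500 had 7.55%, 7.16%, 8.36% and 8.91% in HS_DT, 15.9%, 13.3%, 16.2% and 13.5% in HS_SCR and 10.6%, 12.6%, 10.8% and 15.1% in PRE_LS. HS_DT minus HS_SCR was -6.72 points, and the PRE_LS mean lay between. The shore 2027 bp upstream of a placed Hes7 start, in chr10:55446501-55447000, had 65.9%, 63.9%, 62.3% and 65.7% in HS_DT, 72.8%, 78.7%, 79.2% and 77.8% in HS_SCR and 70.0%, 53.3%, 71.9% and 72.8% in PRE_LS. There PRE_LS overlapped with both groups. The Hes7 start meant here is not the printed one, which lay in chr10:55450001-55450500.

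The shore upstream of Trappc1, a vesicle trafficking subunit, in chr10:55665501-55666000 averaged 10.4% ± 2.09 in HS_DT, 17.7% ± 2.65 in HS_SCR and 13.6% ± 1.73 in PRE_LS. The shore of Fabp3, a fatty acid-binding protein, in chr5:152245001-152245500 averaged 16.7% ± 4.05 in HS_DT, 26.9% ± 4.17 in HS_SCR and 17.3% ± 8.49 in PRE_LS. In the other direction, the shore upstream of Coro1c, an actin-binding coronin, in chr12:50262501-50263000 had 22.8 to 25.7% in the 4 HS_DT rats, 15.8%, 18.9%, 11.5% and 17.4% in HS_SCR and 10.9%, 27.3%, 16.2% and 30.0% in PRE_LS. The PRE_LS rats covered more than the range of the other groups together.

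For HS_SCR minus PRE_LS, the lowest adjusted p among shore bins was 0.976. It belonged to chr1:132502501-132503000, next to which no start was placed, with 9.22%, 9.96%, 8.38% and 9.23% in HS_SCR and 4.71%, 6.11%, 5.39% and 5.26% in PRE_LS. HS_DT lay at 7.62% ± 1.97, across both. The shore downstream of Fzd7, a Wnt receptor, in chr9:66113501-66114000 had 48.5%, 52.5%, 48.5% and 48.5% in HS_SCR and 44.2%, 41.9%, 43.2% and 40.3% in PRE_LS. A pair of adjacent shore bins on chromosome 3, chr3:168420501-168421000 and chr3:168421001-168421500, were both lower in HS_SCR, at 19.7% ± 1.18 and 31.4% ± 1.83, against 30.6% ± 3.77 and 40.1% ± 2.52 in PRE_LS. The bin upstream of Adamts18, a secreted metalloprotease, in chr19:56993001-56993500 had 40.8% ± 2.19 in HS_SCR and 49.5% ± 3.70 in PRE_LS.

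For HS_DT minus PRE_LS, the lowest adjusted p was 0.813. The shore 800 bp upstream of Cx3cl1, which encodes the chemokine fractalkine, in chr19:10648501-10649000 had 24.6%, 20.1%, 23.7% and 22.1% in HS_DT and 14.1%, 18.5%, 16.9% and 16.9% in PRE_LS. HS_SCR had 21.7%, 24.6%, 23.5% and 17.2% in that bin, so 3 of its 4 rats lay above all PRE_LS rats. The bin chr18:29882001-29882500 had 26.7% ± 3.67 in HS_DT and 17.6% ± 1.98 in PRE_LS. The same bin was among the candidates of the first table, with 6.40% ± 1.62 in CRL_HS and 14.4% ± 7.02 in CRL_LS.

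In the first table the lowest adjusted p of a shore bin was 0.626, and depths were lower. For MCW_HS minus MCW_LS, the bin with the start of Gp1bb, a platelet receptor chain, in chr11:89620501-89621000 had 36.4%, 38.6%, 56.3% and 46.3% in MCW_HS, against 29.3%, 24.5% and 24.5% in MCW_LS. CRL_HS and CRL_LS stood at 34.4% ± 11.5 and 38.0% ± 8.16 there. The shore downstream of Scin, an actin-severing protein, in chr6:69640001-69640500 had 27.4%, 25.2%, 32.9% and 31.0% in MCW_HS and 44.8%, 40.3% and 53.8% in MCW_LS. For CRL_HS minus CRL_LS, the shore upstream of the elongation factor Elof1, in chr8:23186501-23187000, had 49.6%, 51.3%, 51.2% and 43.9% in CRL_HS and 67.2%, 51.9%, 58.0% and 62.7% in CRL_LS.

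Between MCW_LS and CRL_LS, which differ in colony, salt content and kind of diet, the shore downstream of Zbtb24, a zinc finger protein known from mouse and human as needed for normal DNA methylation, in chr20:47867001-47867500 had 65.7%, 84.3% and 73.3% in MCW_LS, against 85.2%, 90.9%, 96.7% and 100% in CRL_LS. On high salt the same bin had 89.2% ± 4.66 in MCW_HS and 87.0% ± 7.32 in CRL_HS, and it was also among the candidates for a difference of the salt effects, with an adjusted p of 0.816. The shore of Tmsb10, an actin-sequestering thymosin, in chr4:165645501-165646000 had 2.44%, 1.79%, 2.90% and 1.35% in MCW_HS and 8.05%, 5.93%, 11.2% and 11.0% in CRL_HS. It held 3 sites, and rats had 74 to 138 reads there.

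In the shore bins that varied most between the 12 rats of the second table, the groups overlapped. The bin 797 bp upstream of Calca, the gene of calcitonin and the vasodilator CGRP, in chr1:191163501-191164000 had 62.6%, 80.4%, 84.6% and 40.9% in HS_DT, 84.8%, 70.9%, 64.4% and 86.9% in HS_SCR and 71.4%, 65.1%, 66.03% and 81.4% in PRE_LS. The groups overlapped, and the SD over the 12 rats was 13.1 points. The bin downstream of Hhex, a homeobox factor, in chr1:263585501-263586000 had 57.4%, 28.8%, 39.3% and 34.4% in HS_DT, 36.7%, 37.9%, 34.2% and 61.3% in HS_SCR and 46.6%, 45.8%, 62.0% and 48.9% in PRE_LS. There every PRE_LS rat lay above most HS_DT and most HS_SCR rats. The Twf1 start had 31.4%, 14.1%, 28.6% and 26.9% in HS_DT, 29.0%, 22.9%, 62.8% and 33.8% in HS_SCR and 26.8%, 27.8%, 21.9% and 20.5% in PRE_LS. A single HS_SCR rat, replicate 3, was at 62.8% and the other 11 rats were at 33.8% or less. The same rat was highest of the 12 in chr17:92463001-92463500, at 51.8%, and lowest at the Rmdn3 start.

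Across all shore bins the spread between rats was widest at partial levels. Bins of 10 to 80% had a median SD within groups of 4.10 points at distance 1, 4.18 at distance 2, 3.90 at distance 3 and 3.93 at distance 4. The dispersion beyond binomial counting was 3.46, 2.81, 2.22 and 2.01 at these distances. Read depth was lower farther out, with a median of 481 reads per bin and library at distance 1 and 300 at distance 4. Shore bins under 10% had smaller SDs that were larger farther out, with medians of 0.329, 0.821, 1.15 and 1.11 points at distances 1 to 4. Their dispersion, at 1.58, 2.12, 2.31 and 2.83, was also larger farther out, opposite to that of bins of 10 to 80%.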

How the data were processed

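DNA methylation was measured by RRBS in 27 libraries, 1 per rat. The deposited tables hold counts of C (methylated) and T (unmethylated) reads per CpG and rat, per the file headers, over 2852395 positions for 15 libraries and 5477824 positions for 12. The submitters' processing notes name Trim Galore 0.2.5 and the rn5 build. The aligner and the caller were not given in the sources used here, nor was any removal of duplicates. Libraries held 35040331 to 95102303 counts in the first table (median depth at common sites 24 to 66 reads) and 174400859 to 257658964 in the second (66 to 98). Within each table all labels carry the same lane number, and the tables were tested separately. In the first table, MCW_LS replicate 2 and CRL_LS replicate 3 are marked RP in the column names. Each repeats the index sequence of another library with that lane number, so the lane number need not mean 1 sequencing run. The sample titles put the MCW_LS mark on replicate 1 instead.

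A bin's level in a rat is its summed C reads as a percentage of its reads, and the level of a set is the unweighted mean over its bins. SD is over rats. Sites needed 10 reads in every library of the table. Groups were compared with a quasi-binomial logistic model per bin of 500 bp, with dispersion moderated by squeezeVar of limma 3.58.1 (R 4.3.3) and held at 1 or more, a two-sided F test and Benjamini-Hochberg adjustment over all bins tested. The test was checked on simulated counts. Python 3.11.15 with numpy 2.4.6 and pandas 2.3.3 did the rest. Positions with identical counts elsewhere in the table occurred in 625 shore bins (6.24%), and these bins were passed over when bins were named.

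Of 33469 RefSeq promoters, 18831 had 6 or more CpGs, and 9609 were matched by CpG spacing to 1 place on rn5, of which 9472 (98.6%) were on the gene's chromosome and kept. No coordinates were converted. The match was devised after the tables were seen. Same-numbered replicates of different groups did not deviate together (r from -0.046 to 0.040 in the second table and -0.050 to 0.059 in the first). The labels do not state that the numbers pair rats, so the main test used no pairing. Such r values cannot exclude that a number marks rats handled together. The members and gene lists were chosen with earlier results of these data known. Bins named per comparison were those with the smallest unadjusted p among shore bins whose groups did not overlap. Also named were flanks with 4 shore bins, the most variable bins and bins of listed genes. Alternatives tried were 20 reads, unweighted levels, limma on log ratios, no filter on the level, other bin rules, a replicate block, the range of animal numbers, and leaving out libraries. Intervals between rats are given and no interval for reads, since PCR reads are not independent molecules.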

Additional observations from a re-analysis of the deposited data

Results flagged for a closer look

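Of 107 groups of 4 rats looked at, 10 had a rat that stood apart from the other 3 by Dixon's 95% criterion. Chance marks about 1 group in 20 where values are continuous and the bin was not picked for its spread. That rate does not hold for groups with 3 rats at 0%, where any other value is marked. Nor does it hold for the most variable bins, such as that of Hhex, so the count cannot be set against it. In MCW_HS, the mean shore level at distance 2 was 19.3% in 1 rat and 20.1 to 20.3% in the others. In HS_SCR, the bin downstream of Hhex was at 61.3% in 1 rat and at 34.2 to 37.9% in the others.

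The other 8 were shore bins near 0, where a few methylated reads in 1 rat set it apart from 3 rats at 0%. The Lrp2 bin at distance 1 had 0.355% in a PRE_LS rat, and the Gata3 bin 1.02% in an HS_SCR rat. The Tet2 bin had 0.258% and the Polr2a bin 0.0870% in a PRE_LS rat. The Add1 bin had 0.0966% in an HS_DT rat and 0.141% in an HS_SCR rat. The Eef1a1 bin had 0.926% in an HS_SCR rat and 2.33% in a PRE_LS rat.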

How the results depend on the processing

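Calls between groups did not depend on the settings tried, with 1 exception. Among 111 refits of the 8 comparisons the quasi-binomial test or limma called 0 shore bins in 110. Leaving out libraries gave 0 to 1 shore bins for MCW_LS minus CRL_LS and 0 elsewhere. With MCW_LS replicate 3 left out, 135 of all 27955 bins tested (0.483%) were called there. Among the 953 shore bins tested in that refit, 1 was called. This bin, chr14:46758501-46759000, had an adjusted p of 0.046 without that rat and 0.945 with all rats, where its levels were 4.35%, 6.74% and 16.4% in MCW_LS and 14.3%, 11.8%, 14.2% and 17.2% in CRL_LS. The replicate block, which pairs rats by their replicate number, called 0 shore bins in every comparison. The differences in the 60 bin results named by comparison kept their sign in all 792 refits, and the lowest adjusted p was 0.101.

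The level by distance moved with how bins were chosen, beyond the small spread between libraries, and the order of distances held in each setting. With 20 reads per site, distances 1 to 4 had 4.16%, 22.7%, 39.1% and 48.1%, and with unweighted site levels 4.70%, 24.9%, 38.9% and 46.7%. With CpG-rich bins of 15 or more sites they had 4.42%, 23.4%, 39.6% and 48.5%. With CpG-rich bins under 5%, distances 1, 2 and 4 had 4.46%, 26.1% and 49.6%. Bins shifted by 250 bp gave 5.07% at distance 1, and leaving out positions of equal counts gave 25.9% at distance 2. The bins measured in the first table gave 3.29%, 19.5%, 35.6% and 47.8%. The cause was not tested. Of 76 recomputed levels of listed gene bins, 11 moved by more than the SD between rats, 7 of them in the first table.

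With libraries left out, differences of the mean over all shore bins, none of them tested, moved by more than 1.5 times in places. MCW_HS minus MCW_LS ranged from 0.212 to 0.436 points, CRL_HS minus CRL_LS from 0.0815 to 0.221, MCW_HS minus CRL_HS from 0.0998 to 0.323 and the difference of the salt effects from 0.0805 to 0.304. HS_DT minus HS_SCR lay between -0.214 and -0.0265, and HS_SCR minus PRE_LS between 0.00738 and 0.195. MCW_LS minus CRL_LS was 0.0192 with all rats and ranged from -0.0312 to 0.109, below 0 without MCW_LS replicate 3 or CRL_LS replicate 2 or 3. HS_DT minus PRE_LS was -0.0191 with all rats and ranged from -0.0668 to 0.0182, above 0 without HS_DT replicate 4 or PRE_LS replicate 4. Of the shore bins in the second table, 6179 to 6201 were not tested because their pooled level was outside 5 to 95%, and small changes there would not have been detectable with this test.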

Other observations

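Shore bins were found on all 20 autosomes, from 212 on chromosome 11 to 1260 on chromosome 1. The mean level per chromosome ranged from 10.9% on chromosome 17 and 11.96% on chromosome 2 to 19.0% on chromosome 12 and 19.2% on chromosome 20. These means were not adjusted for the mix of distances on each chromosome.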
